A study of Mus musculus with 69 samples.

Results

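The ErbB genes examined here were 10 of the 56953 genes in the count tables. They comprised the receptors Egfr, Erbb2 and Erbb3, the ligands Areg, Ereg, Hbegf, Tgfa and Nrg1, and the feedback inhibitors Errfi1 and Lrig1, each taken by its gene symbol in all libraries of male C57BL/6 mouse cells. RNA was measured by poly(A)-enriched RNA-Seq in primary vascular smooth muscle cells (VSMC) cultured from aorta, either wildtype (WT VSMC) or with the floxed Egfr alleles deleted by a Cre recombinase under the SM22 promoter (KO VSMC, labelled EGFR-KOsmc), and in endothelial cells (EC) selected from heart with CD31 beads and labelled WT. The question behind the design was whether stressors found in obesity act on these cells through the EGF receptor, and here it is put to the receptor's own gene family.

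Cells were exposed for 24 h to control medium (Control), to 20 mM glucose with free fatty acids (HG + FFA), 100 µM in the labels and 100 µM each of oleate and palmitate in the study's methods, to 30 nM angiotensin II with 300 nM of a catecholamine that the labels call epinephrine and the study's methods norepinephrine (AII + NA), or to both mixtures at once (ALL stressors). All incubations, Control included, contained bovine serum albumin, and VSMC were kept without serum before the exposure. The libraries came in 18 sets, each a group of parallel cultures of 1 animal. WT VSMC were sets 1 to 4, with n = 4 per condition, and KO VSMC were sets 5 to 8, with n = 4 and, for ALL stressors, n = 3. EC were sets 9 to 18 from 9 animals, with n = 9 under Control and AII + NA and n = 10 under HG + FFA and ALL stressors. EC sets 17 and 18 were taken from the same animal, and 4 animals gave both EC and VSMC. In 2 of these, the VSMC were KO VSMC (sets 6 and 7), so that EC sets 16 and 15 came from animals whose VSMC carried the Egfr deletion. The age of the mice was not given in the sources used here, and the SM22 promoter confines the deletion only to cells in which it has been active.

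The ErbB receptors are tyrosine kinases of the cell surface that work in pairs. EGFR binds amphiregulin, epiregulin, HB-EGF and TGFα, which are cut from membrane-bound precursors by ADAM proteases, whereas the neuregulins bind ERBB3 and ERBB4. ERBB2 has no known ligand of its own and ERBB3 has very weak kinase activity, so both act as partners. Receptor activation drives the ERK cascade, which in turn induces inhibitors, among them ERRFI1 (MIG6), which binds the kinase domain of EGFR, and LRIG1, a membrane protein that promotes the degradation of ErbB receptors. In the vessel wall, HB-EGF and angiotensin II are known to act on smooth muscle through EGFR, and endothelial neuregulin 1 is known as a signal to cardiomyocytes.

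Levels are given as FPM, the number of fragments of a gene per 1000000 fragments of the library, after scaling of the totals with TMM factors over all 69 libraries. Totals lay between 23238979 and 37801299 counts in VSMC and between 17166133 and 43240489 counts in EC. At this depth 9 of the 10 genes could be tested in most comparisons. Areg could not. In WT VSMC a library held 0 to 3 Areg counts, in KO VSMC 0 to 17 and in EC 0 to 12, and Areg passed the count filter only where KO VSMC were fitted with their own stressors or together with WT VSMC for the stressor effects. Erbb3 was low in most sets, with 2 to 131 counts per library in WT VSMC and 0 to 19 in EC.

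The labelled cell types were compared with marker genes before any result was drawn from them. The summed level of 8 endothelial markers was 2.8 to 54.7 FPM in the WT VSMC sets and 53.0 to 4400 FPM in the EC sets. EC sets 9, 11 and 13 stood apart from the other EC sets. Their endothelial sums were 53.0, 136 and 59.1 FPM, against 547 to 4400 FPM in the other 7 sets, and their 6 fibroblast markers summed to 6060, 22700 and 18500 FPM. The other 7 sets had fibroblast sums of 956 to 7230 FPM, so that set 9 lay within their range in these markers. EC results are therefore given with and without these 3 sets. Within VSMC, the smooth muscle marker Acta2 lay between 598 and 2390 FPM, whereas Tagln, the gene of SM22, was only between 2.58 and 10.6 FPM. Myh11 was 3.92 to 10.8 FPM in WT VSMC. In EC, Acta2 reached 3190 FPM as a set mean, Myl9 270 FPM, Cnn1 33.0 FPM and Myh11 9.01 FPM. The smooth muscle sums given below therefore rest mainly on Acta2. Fibroblast markers summed to 8780 to 22500 FPM in WT VSMC and to 3390 to 3720 FPM in KO sets 6, 7 and 8, with 13500 FPM in KO set 5. Leukocyte markers summed to at most 30.1 FPM in any set. Of the 4 cardiomyocyte markers, Myh6 was at most 0.0282 FPM as a set mean, Actc1 0.182 FPM and Ryr2 2.19 FPM. Tnnt2 was 3.24 to 77.7 FPM in WT VSMC, 23.3 to 153 FPM in KO VSMC and 2.01 to 273 FPM in EC. The cardiomyocyte sums given below therefore rest mainly on Tnnt2. Fewer cells of a type and less RNA per cell cannot be told apart in such bulk samples.

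**Figure D1:**
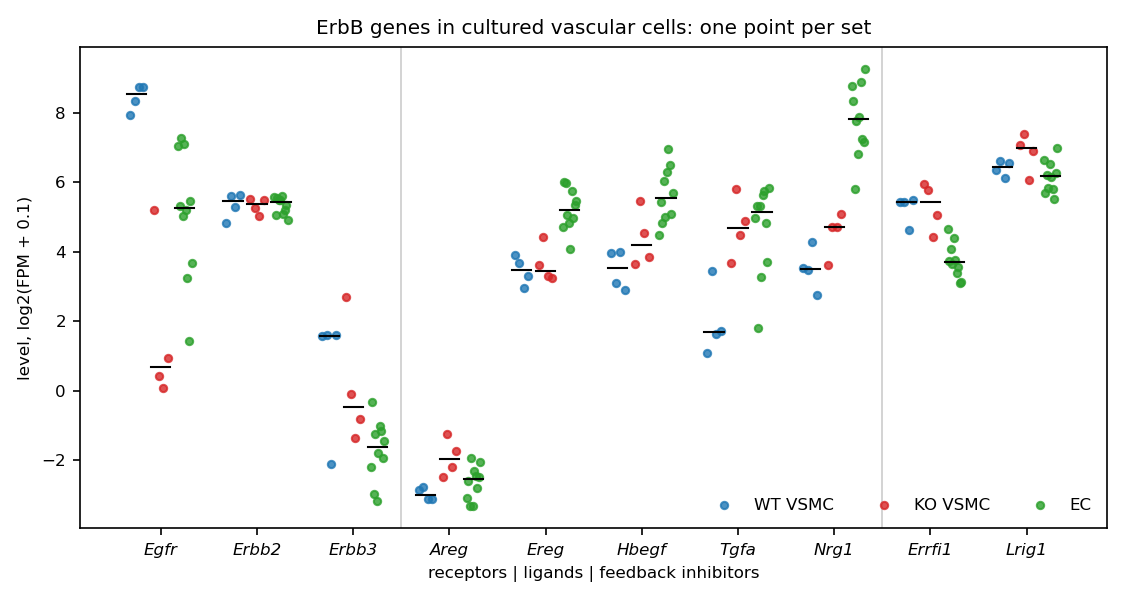
Level of each of the 10 ErbB genes, as log2(FPM + 0.1) on the vertical axis, with 1 point per set (mean of its libraries over the 4 conditions) for WT VSMC (blue), KO VSMC (red) and EC (green), and black lines at the medians. Erbb2 lay in the same range in all 3 cell types, Areg had the lowest median in all 3, and Nrg1 was higher in every EC set than in any VSMC set.

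Egfr, on chromosome 11 (GRCm39, 16702198 to 16868158, plus strand), was the most abundant of the 3 receptors in WT VSMC. In WT VSMC the set means of its level were 246 to 430 FPM. Under Control the 4 libraries held 278, 324, 428 and 500 FPM in sets 1 to 4. In KO VSMC the Control libraries held 40.2 FPM in set 5 and 0.691, 0.534 and 1.75 FPM in sets 6, 7 and 8. KO and WT VSMC did not overlap in any condition, but set 5 stood far above the other KO sets. Relative to the mean of WT VSMC, the Egfr level over all conditions was 10.3% in set 5 and 0.351%, 0.27% and 0.519% in sets 6, 7 and 8. Averaged over sets, the level was lower by a log2 difference of -6.79 in KO VSMC (two-sided exact permutation test over 4 against 4 sets, p = 0.0286, the smallest value this design allows). This check rests on counts over the whole gene, and which exons were removed was not examined.

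The same contrast in Control libraries alone, fitted with edgeR's quasi-likelihood test over all genes, gave Egfr a log2FC of -5.15 ± 1.37 (SE) with FDR = 0.32, so that the contrast did not pass with all sets. Without set 5, the log2FC was -8.64 with FDR = 0.00156 in edgeR, and DESeq2 gave FDR = 0.00858 with all sets. Set 5 differed from the other KO sets in other ErbB genes too. Its mean Erbb3 level was 6.42 FPM, against 0.293 to 0.832 FPM, and its Nrg1 under Control was 10.5 FPM against 23.3 to 24.4 FPM. The summed level of 4 Schwann cell markers was 46.5 FPM in set 5, against 9.79 to 13.6 FPM. Its 6 smooth muscle markers summed to 3650 FPM, the highest of all sets, against 935 to 2030 FPM in the other KO sets and 873 to 1370 FPM in WT VSMC. The part of these markers in the values of set 5 was not tested.

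In EC the Egfr level ranged from a set mean of 2.61 FPM to 154 FPM. Sets 11, 13 and 9, the sets with few endothelial transcripts, held 154, 138 and 133 FPM. Sets 11 and 13 also had the highest smooth muscle sums among EC, mainly Acta2, at 3480 and 3180 FPM. The other 8 sets, set 9 (810 FPM) included, had 220 to 810 FPM. The part of these smooth muscle transcripts in the Egfr level was not tested. Sets 10, 14 and 12 held 40.0, 37.0 and 32.4 FPM, and the animal of sets 17 and 18 held 28.2 FPM, as the mean of 43.8 and 12.6 FPM in its 2 sets. EC sets 15 and 16, of the animals that also gave KO VSMC, held 9.31 and 2.61 FPM, the lowest set means of all, the former close to that of set 18. The 2 animals lay below the other 7 by a log2 difference of -3.62 (two-sided exact permutation test over animals, p = 0.0278, the smallest value possible with 2 against 7; this grouping follows the animal labels and was chosen after the values were seen). Sets 15 and 16 had endothelial sums of 2970 and 769 FPM, fibroblast sums of 1810 and 5040 FPM and smooth muscle sums of 220 and 563 FPM. All lay inside the range of the other EC sets except the smooth muscle sum of set 15, which was the lowest. Set 18, with 12.6 FPM of Egfr, had the next lowest smooth muscle sum, 262 FPM. A part of the deletion or of these markers in the low Egfr of sets 15 and 16 was not tested, and both sets carry the label WT.

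**Figure D2:**
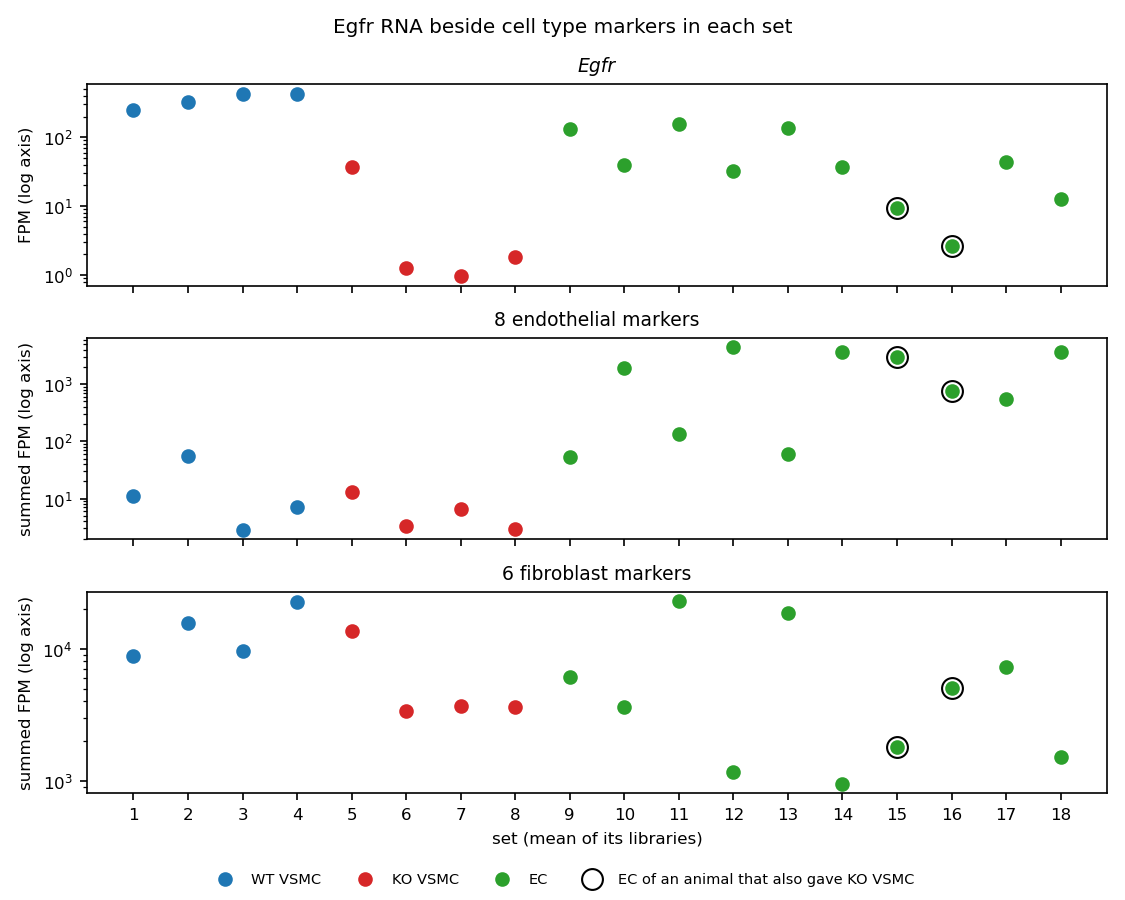
Set means of Egfr (top, FPM), of the sum of 8 endothelial markers (middle, summed FPM) and of the sum of 6 fibroblast markers (bottom, summed FPM) against the set number, all on log axes. EC sets 9, 11 and 13 combined the highest Egfr among EC (133 to 154 FPM) with the lowest endothelial sums (53.0 to 136 FPM), and the circled EC sets 15 and 16, whose animals also gave KO VSMC, had the lowest Egfr (9.31 and 2.61 FPM).

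Erbb2, the partner without a ligand, had much the same level in the 3 cell types. Its set means were 28.4 to 49.9 FPM in WT VSMC, 32.3 to 45.3 FPM in KO VSMC and 30.3 to 48.4 FPM in EC, and all 3 ranges overlapped. Under Control, KO VSMC differed from WT VSMC by a log2FC of -0.06 (95% interval -0.50 to 0.38) and EC from WT VSMC by 0.10 (-0.33 to 0.54). Erbb3, the kinase-weak neuregulin receptor, was 2.28, 3.46 and 3.58 FPM under Control in WT sets 1, 2 and 4 and 0.163 FPM in set 3. Set 3 also had the lowest sum of Schwann cell markers in WT VSMC, 7.67 FPM against 21.6 to 30.2 FPM in the other sets, and the EC sets had 2.31 to 6.81 FPM; the part of these markers in the Erbb3 levels was not tested. In EC it was at most 0.708 FPM as a set mean, and 2, 2, 2 and 5 EC libraries held 0 counts (in the order of conditions given above), where 0 counts allow up to 3. Between genes, levels were compared per length as TPM, the length-corrected analogue of FPM, over the union of annotated exons. Egfr made up 79.0% ± 3.71 (SD, n = 4 sets) of the summed TPM of the 3 receptors in WT VSMC and Erbb2 20.0% ± 3.26. In KO VSMC Erbb2 made up 89.6% ± 15.3 (n = 4), and in EC 66.7% ± 20.2 (n = 10), with Egfr at 32.9% ± 20.5. Erbb3 stayed at or below 1.69% of the receptor sum in every WT VSMC and EC set.

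Among the ligands, Areg and Ereg are neighbours on chromosome 5 (GRCm39, Ereg 91222157 to 91241505 and Areg 91287451 to 91296291, both on the plus strand) with very different levels. Epiregulin RNA was 7.73 to 14.8 FPM in WT VSMC, 9.44 to 21.3 FPM in KO VSMC and 16.7 to 64.2 FPM in EC as set means, whereas amphiregulin RNA never passed 0.324 FPM. Per length and under Control, Ereg was 9.10 ± 3.13 TPM (SD, n = 4) in WT VSMC and Areg 0.086 ± 0.119 TPM. The WT VSMC and EC set means did not overlap in Ereg, nor in Egfr, Hbegf and Nrg1, which held for 15.4% of the genes whose average reached 1 FPM. KO VSMC and EC did not overlap in Nrg1 (14.8% of genes).

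Nrg1, neuregulin 1 (chromosome 8, GRCm39, 32303906 to 33374825, minus strand), was the ligand whose set means in EC overlapped neither WT VSMC nor KO VSMC. A nested gene model with the same symbol held 0 counts in all libraries. In WT VSMC the Control libraries held 11.5, 8.78, 14.7 and 3.69 FPM, and in KO VSMC 10.5, 23.3, 24.4 and 23.9 FPM. The 9 EC Control libraries ranged from 47.6 FPM over a median of 215 FPM to 729 FPM. EC sets 9, 11 and 13, with few endothelial transcripts, had set means of 432, 55.7 and 113 FPM, and the other EC sets 144 to 613 FPM. No EC library overlapped any VSMC library of the same condition. As a share of the summed TPM of the 5 ligands, Nrg1 made up 37.2% ± 14.3 (SD, n = 10 sets) in EC, 11.6% ± 4.25 (n = 4) in WT VSMC and 11.8% ± 4.78 (n = 4) in KO VSMC. In WT VSMC the first ligands by this measure were Ereg, with 40.0% ± 9.46, and Hbegf, with 36.8% ± 9.95.

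In the comparison of EC with WT VSMC under Control, 6 of the 9 tested ErbB genes had FDR under 0.05 in edgeR, where 13% of all genes tested passed. The ligands Nrg1, Tgfa, Hbegf and Ereg were higher in EC and the receptor Erbb3 and the inhibitor Errfi1 were lower. For Nrg1 the log2FC was 4.82 ± 0.74 (SE, FDR = 0.00299), a 28.3-fold difference. Tgfa differed by 2.68 ± 0.70 (FDR = 0.028), Hbegf by 2.65 ± 0.60 (FDR = 0.0156) and Ereg by 1.57 ± 0.38 (FDR = 0.0207). Erbb3 differed by -3.75 ± 0.74 (FDR = 0.00935) and Errfi1 by -1.31 ± 0.27 (FDR = 0.0117). In both of these genes the set means of EC and WT VSMC overlapped. For Erbb3 the EC Control libraries held 0 to 15 counts (0 to 0.506 FPM), and WT set 3, at 0.163 FPM, lay within that range. Erbb3 could be tested in 8 of 13 refits that left out a set. The fits were at the level of animals, 4 WT VSMC against 8 EC animals, with the libraries of EC sets 17 and 18 summed. The animal of WT VSMC set 1 also gave EC set 9, and the fits had no term for this shared animal.

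The EC sets with few endothelial transcripts bore on this comparison. Egfr missed the threshold with all EC (log2FC = -2.54 ± 0.79, FDR = 0.0522). Without sets 9, 11 and 13 it was lower in EC by -4.17 ± 0.69 (FDR = 0.00211), when 30.8% of all genes passed. The EC left were then sets 12, 14, 15, 16, 17 and 18. Sets 15 and 16, whose animals also gave KO VSMC, held 7.46 and 2.18 FPM of Egfr under Control. No fit left out both groups of sets. The 6 genes named above also had FDR under 0.05 without sets 9, 11 and 13. Their log2FC were 4.98 for Nrg1, 3.10 for Tgfa, 3.11 for Hbegf, -3.38 for Erbb3 and -1.68 for Errfi1, and FDR was 0.0151 for Ereg. Without EC sets 15 and 16, Tgfa (FDR = 0.0666) and Ereg (FDR = 0.0545) were no longer called by edgeR, while Egfr was (log2FC = -2.15, FDR = 0.0381). Tgfa, whose EC set means ran from 3.38 to 57.4 FPM, was lowest in sets 11 (3.38 FPM) and 13 (9.64 FPM), and Errfi1 was highest in sets 9 (25.3 FPM) and 13 (21.1 FPM). Leaving out WT VSMC set 2 or set 4 lowered the count to 3 or 2 genes. By DESeq2, 7 of the 9 genes passed, Egfr among them (17.3% of all genes), as did 7 at an unadjusted p under 0.05 in edgeR (30.9%). Tissue, culture and batch (labelled B1 for VSMC and B2 for EC, without saying of what) differ together with the cell type, so that they cannot be told apart.

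**Figure D3:**
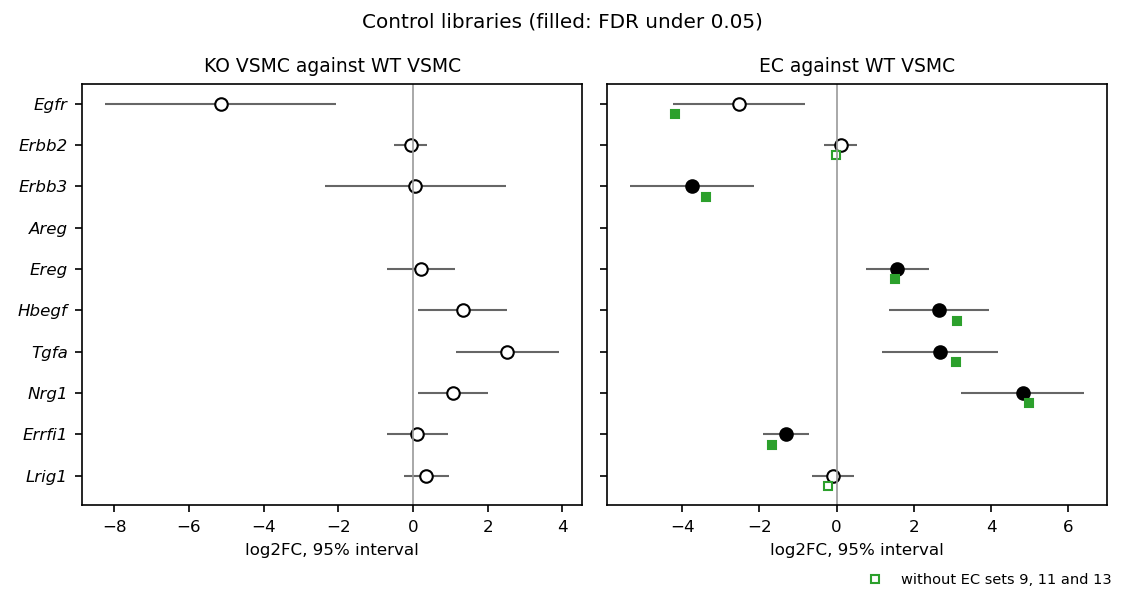
log2FC of the ErbB genes in Control libraries with 95% intervals, for KO VSMC against WT VSMC (left) and EC against WT VSMC (right), with filled symbols at FDR under 0.05 (edgeR). Green squares leave out EC sets 9, 11 and 13, and Areg was not tested. No gene passed on the left, 6 passed on the right, and Egfr passed there without the 3 sets (log2FC = -4.17) but not with them. EC sets 15 and 16, whose animals also gave KO VSMC, are in both fits on the right.

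The mean levels of several ligands lay above WT VSMC in KO VSMC, but these differences did not pass the correction over all genes. Of the 9 ErbB genes tested under Control, 0 had FDR under 0.05 in edgeR (0.00622% of all genes passed), 4 had an unadjusted p under 0.05 (12.2% of all genes), and DESeq2 called 2, Egfr and Tgfa (2.01% of all genes). Among the ligands the largest was that of TGFα. Tgfa (chromosome 6, GRCm39, 86172041 to 86252728, plus strand) held 2.04, 11.8, 3.67 and 3.65 FPM in WT sets 1 to 4 and 13.9, 60.3, 27.0 and 21.3 FPM in KO sets 5 to 8. Every KO library under Control lay above every WT library, the nearest pair being KO set 5 and WT set 2. The log2FC was 2.53 ± 0.62 (SE, 95% interval 1.14 to 3.92), with p = 0.0025 and FDR = 0.294 in edgeR and FDR = 0.0017 in DESeq2. The set means over all conditions did not overlap in Tgfa, which held for 3.66% of genes in this direction and 7.09% in either. Areg and Egfr were the other ErbB genes without overlap, Areg at no more than 17 counts per library.

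Hbegf and Nrg1 pointed the same way with more overlap. Under Control, Hbegf was 6.50 to 16.6 FPM in WT VSMC and 12.3, 62.2, 25.8 and 13.2 FPM in KO sets 5 to 8 (log2FC = 1.33 ± 0.53, FDR = 0.401 in edgeR). For Nrg1 the log2FC was 1.08 ± 0.42 (FDR = 0.401 in edgeR), and KO set 5 fell among the WT libraries. Ereg did not pass either (0.22 ± 0.41). In the feedback inhibitors the intervals for KO against WT VSMC ran from -0.70 to 0.94 for Errfi1 and from -0.25 to 0.96 for Lrig1. KO sets 6 to 8 also had lower fibroblast marker sums than every WT set. Their 6 epithelial and mesothelial markers summed to 28.2 to 66.7 FPM, against 3.36 to 4.84 FPM in WT VSMC. Most of this was Upk3b, at 5.83 to 63.9 FPM over all KO sets and 2.56 to 4.20 FPM in WT VSMC. In KO VSMC Msln reached at most 4.93 FPM and Krt18 1.49 FPM, while Epcam, Krt8 and Cdh1 stayed at or below 0.0993 FPM. The part of these markers in the ligand values was not tested.

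EC of the 2 animals that also gave KO VSMC had the highest Hbegf among EC. Their animal means were 90.2 and 125 FPM, against 22.1 to 77.9 FPM in the other 7 animals (log2 difference 1.36, two-sided exact permutation test, p = 0.0278, the smallest possible). This grouping was chosen after the Egfr values were seen, and p was not corrected for the 10 genes compared. Of the 10 genes compared in this way, Egfr and Hbegf were those in which the 2 groups of animals did not overlap, which held for 3.9% of all genes averaging 1 FPM or more in EC. For Tgfa the 2 animals held 28.1 and 54.1 FPM and the others 3.38 to 49.1 FPM (p = 0.444, exact permutation test). In Nrg1 they held 152 and 472 FPM among 55.7 to 432 FPM (p = 0.639, exact permutation test).

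The stressors changed few of these genes. HG + FFA moved 0 of the 9 tested ErbB genes past FDR 0.05 in WT VSMC (0.538% of all genes passed in edgeR). An unadjusted p under 0.05 was found for 0 of 9 (11.2% of all genes), and DESeq2 called 0 (1.52%). With AII + NA there were again 0 by edgeR (0.0532% of all genes), 1 at an unadjusted p under 0.05 (9.42%) and 0 by DESeq2 (1.16%). The gene nearest to the threshold there was Nrg1, with a log2FC of 0.50 ± 0.17 (unadjusted p = 0.0084, FDR = 0.293 in edgeR). The receptor Egfr itself stayed between 226 and 500 FPM in all WT libraries. With HG + FFA its log2FC was -0.01 (95% interval -0.22 to 0.21). With AII + NA it was lower in 4 of 4 sets (log2FC = -0.21, interval -0.42 to 0.01, FDR = 0.569).

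Under ALL stressors, 1 of the 9 tested genes in WT VSMC passed, where 7.45% of all genes did. At an unadjusted p under 0.05 there were 4 (21.7%), and DESeq2 called 2, Nrg1 and Lrig1 (5.02%). Nrg1 rose from 11.5 to 13.7 FPM in set 1, from 8.78 to 11.5 FPM in set 2, from 14.7 to 23.7 FPM in set 3 and from 3.69 to 9.77 FPM in set 4. It was higher in 4 of 4 sets, although the Control and ALL libraries of different sets overlapped. The log2FC was 0.64 ± 0.17 (95% interval 0.28 to 0.99), a 1.56-fold difference, with FDR = 0.0287 in edgeR and FDR = 0.0064 in DESeq2. With the log2FC of edgeR, 0.638, Nrg1 fell just short of the 0.64 that the study's own rule asks for, whereas the log2FC of DESeq2, 0.656, met it. The call was also lost without set 3 (FDR = 0.128) and without set 4 (log2FC = 0.44, FDR = 0.196). With the Control and ALL libraries fitted alone, Nrg1 missed the threshold (FDR = 0.0528) and Lrig1 was the gene called in its place (FDR = 0.0445, edgeR). The summed smooth muscle markers, mainly Acta2, moved with Nrg1 in part, being higher under ALL stressors in 3 of 4 sets with a median ratio of 1.80. The endothelial markers were lower in 4 of 4 sets (median ratio 0.608). Epithelial and mesothelial markers, mainly Upk3b, were higher in 4 of 4 sets (1.42) and Schwann cell markers lower in 4 of 4 (0.785). Cardiomyocyte markers, mainly Tnnt2, were higher in 3 of 4 (2.16). The part of these in the Nrg1 values was not tested.

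The other ErbB genes of WT VSMC gave smaller values under ALL stressors. Lrig1 was lower in 4 of 4 sets, at 84.5, 68.3, 60.8 and 73.6 FPM against 87.6, 105, 79.2 and 114 FPM under Control (log2FC = -0.41 ± 0.12, FDR = 0.054 in edgeR and 0.04 in DESeq2). Egfr was lower in 4 of 4 sets too, with a log2FC of -0.23 (interval -0.45 to -0.01, FDR = 0.201). For Tgfa the log2FC was -0.44 (FDR = 0.18) and for Ereg -0.43 (FDR = 0.234), while Hbegf had 0.24 (FDR = 0.406). The median log2FC over the 9 genes was -0.20, against -0.01 over all genes tested. No ErbB gene passed a test of departure from the sum of the separate effects of HG + FFA and AII + NA in any cell type (0% of all genes by edgeR). At an unadjusted p under 0.05 there were 0 ErbB genes in WT VSMC (1.72% of all genes), 2 in KO VSMC (6.59%) and 2 in EC (8.42%), and DESeq2 called 0 in each (0.238%, 0.293% and 0.284%).

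In KO VSMC no ErbB gene passed under any stressor in edgeR, where 0.439% of all genes passed with HG + FFA, 0% with AII + NA and 0.399% with ALL stressors. At an unadjusted p under 0.05 there was 1 ErbB gene in each (12.4%, 9.76% and 10.5% of all genes), and DESeq2 called 0, 1 and 0 (1.68%, 1.13% and 1.52%). Here all 10 genes were tested, Areg with a SE of 0.84 or more. Nrg1 was higher in 4 of 4 sets with HG + FFA (log2FC = 0.27 ± 0.11), in 4 of 4 with AII + NA (0.40 ± 0.11) and in 3 of 3 with ALL stressors (0.23 ± 0.12). For AII + NA the unadjusted p was 0.00159 with FDR = 0.509 in edgeR, while DESeq2 gave FDR = 0.0321. Lrig1 under ALL stressors had a log2FC of -0.32 ± 0.14 (FDR = 0.429) and was lower in 2 of 3 sets.

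The genotypes were then compared directly by the interaction of stressor and genotype. In none of the 3 stressor conditions did an ErbB gene pass (0%, 0% and 0.0109% of all genes in edgeR for HG + FFA, AII + NA and ALL stressors). At an unadjusted p under 0.05 there were 0, 0 and 1 (3.08%, 11.9% and 7.42% of all genes), and DESeq2 called 0 in each (0.282%, 0.381% and 0.499%). For Nrg1 the effect of ALL stressors was larger in WT than in KO VSMC by 0.42 (95% interval -0.03 to 0.86, FDR = 0.697), and for Lrig1 it differed by -0.09 (-0.49 to 0.31). The largest value was that of Hbegf under ALL stressors, 0.61 (0.07 to 1.15, unadjusted p = 0.0297, FDR = 0.62 in edgeR), with log2FC of 0.24 in WT and -0.36 in KO VSMC. A p above the threshold does not show that the genotypes responded alike, and the intervals of most genes still allow differences of 0.3 or more on the log2 scale.

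**Figure D4:**
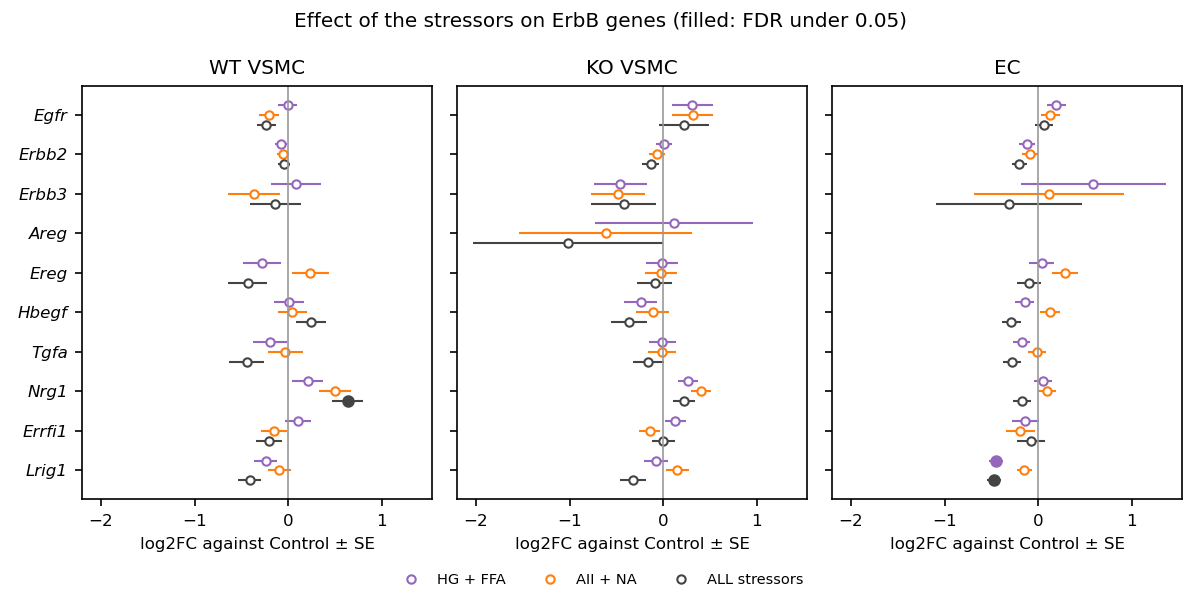
log2FC against Control ± SE of each ErbB gene for HG + FFA (purple), AII + NA (orange) and ALL stressors (grey) in WT VSMC, KO VSMC and EC, filled where FDR was under 0.05 in edgeR, with Areg tested in KO VSMC alone. The filled symbols are Nrg1 under ALL stressors in WT VSMC (0.64) and Lrig1 under HG + FFA (-0.45) and ALL stressors (-0.47) in EC.

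In EC the gene that responded was Lrig1, the inhibitor that promotes receptor degradation (chromosome 6, GRCm39, 94581510 to 94677242, minus strand). Under Control the 9 libraries ranged from 47.6 FPM over a median of 92.1 FPM to 162 FPM. With HG + FFA the 10 libraries ranged from 43.2 over 60.7 to 102 FPM, and with ALL stressors from 39.2 over 56.4 to 123 FPM. The groups overlapped, but within sets Lrig1 was lower with HG + FFA in 9 of 9 sets that had a Control library and with ALL stressors in 8 of 9. It fell with a log2FC of -0.45 ± 0.08 (SE, FDR = 0.000499) under HG + FFA and of -0.47 ± 0.08 (FDR = 0.000282) under ALL stressors, both by edgeR. The folds were 0.733 and 0.722. DESeq2 gave FDR of 6.56e-06 and 1.98e-06. It was the 1 of 9 tested ErbB genes that passed in each of these comparisons, where 3.53% and 3.18% of all genes passed. DESeq2 called the same gene alone (7.2% and 5.99% of all genes), and 1 and 4 ErbB genes had an unadjusted p under 0.05 (16.9% and 16.2%).

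With AII + NA the Lrig1 effect was -0.15 ± 0.08 (FDR = 0.719), and 0 ErbB genes passed (0% of all genes by edgeR). The unadjusted p was under 0.05 for 1, Ereg (6.67% of all genes), and DESeq2 called 0 (0.252%). Without EC sets 9, 11 and 13 the Lrig1 effects were -0.51 ± 0.09 (FDR = 0.00162) for HG + FFA and -0.56 ± 0.09 (FDR = 0.000494) for ALL stressors. With the animal instead of the set as block, which joins sets 17 and 18, FDR was 0.0542 and 0.0519 at log2FC of -0.45 and -0.47, so that the call by edgeR ended there. Of the exonic bases of Lrig1, 23.3% are shared with Slc25a26 on the opposite strand, and whether reads were counted by strand was not stated. Slc25a26, with a median of 8.30 FPM in EC, had a log2FC of 0.00 with HG + FFA and 0.22 with ALL stressors (FDR = 0.998 and 0.473). Fibroblast markers were lower in 8 of 9 EC sets under both stressor conditions (median ratios 0.911 and 0.896), as were cardiomyocyte markers, mainly Tnnt2 (0.777 and 0.791). Schwann cell markers were lower in 7 of 9 (0.756 and 0.826), and epithelial and mesothelial markers were higher in 7 and 8 of 9 sets (1.16 and 1.25). The part of these in the Lrig1 values was not tested.

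The ligand genes nearest to the threshold in EC were Tgfa and Hbegf. Under ALL stressors Tgfa was lower in 7 of 9 sets (log2FC = -0.28 ± 0.09, FDR = 0.103) and Hbegf in 7 of 9 sets (-0.29 ± 0.10, FDR = 0.124, edgeR). Egfr had a log2FC of 0.20 (interval -0.002 to 0.395, FDR = 0.302) with HG + FFA and of 0.06 (-0.14 to 0.26) with ALL stressors. Nrg1, at its high EC level, had -0.18 ± 0.10 (FDR = 0.374) under ALL stressors and was lower in 7 of 9 sets.

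The responses of EC and WT VSMC to ALL stressors differed in 1 of the 9 tested ErbB genes, where 0.511% of all genes passed. This was Nrg1, also the 1 called by DESeq2 (0.748%), and 2 had an unadjusted p under 0.05 (6.48%). Its log2FC was 0.64 in WT VSMC and -0.18 in EC, and the interaction of stressor and cell type was -0.81 ± 0.19 (EC minus WT VSMC, 95% interval -1.20 to -0.42, FDR = 0.0295 in edgeR and 0.00791 in DESeq2). Without EC sets 9, 11 and 13 it was -0.85 ± 0.21 (FDR = 0.0396). The call was lost when any of WT sets 2, 3 or 4 or EC sets 12, 14, 15 or 17 was left out, with values from -0.89 to -0.62 and the highest FDR (0.51) without WT set 4. For Lrig1 the interaction under ALL stressors was -0.05 (interval -0.34 to 0.24), so that the Lrig1 effect passed in EC and not in WT VSMC without a detectable difference between them. No ErbB gene passed in the interaction with HG + FFA or AII + NA (0% and 0.0465% of all genes by edgeR). Unadjusted p was under 0.05 for 0 and 2 (2.05% and 6.5%), and DESeq2 called 0 in each (0.124% and 0.326%).

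**Figure D5:**
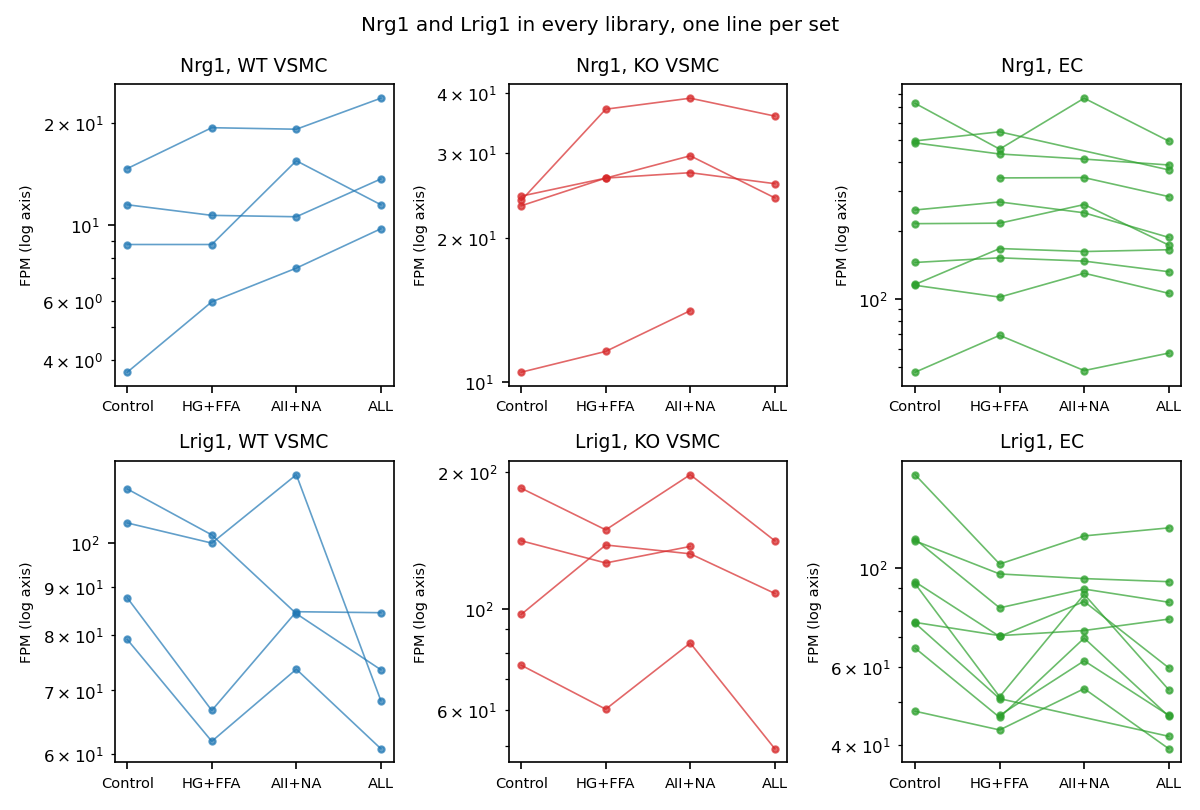
Nrg1 (top) and Lrig1 (bottom) in every library, in FPM on a log axis, with 1 line per set across the 4 conditions, for WT VSMC, KO VSMC and EC. Nrg1 under ALL stressors lay above Control in 4 of 4 WT VSMC sets and in 2 of 9 EC sets, and Lrig1 lay below Control in 4 of 4 WT VSMC sets and in 8 of 9 EC sets.

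Other genes of the pathway were described with 4 lists. Under ALL stressors in WT VSMC, 3 of 14 genes of ERK output and feedback passed, against 7.45% of all genes. Spry4 and Spry2, inhibitors of receptor tyrosine kinase signalling, rose by log2FC of 0.93 ± 0.25 (FDR = 0.0293) and 0.43 ± 0.11 (FDR = 0.0264), and Egr1, an immediate early transcription factor, fell by 1.05 on the log2 scale (FDR = 0.0262). Spry4 was 2.20 to 6.15 FPM under Control and 7.66 to 9.44 FPM under ALL stressors, without overlap. Of 13 adaptors and genes of receptor turnover, Sh3kbp1, an adaptor in the endocytosis of EGFR, was the 1 that passed, at 34.2 to 50.1 FPM under Control and 23.0 to 26.5 FPM under ALL stressors (log2FC = -0.81 ± 0.13, FDR = 0.0017). None of 6 genes of ligand shedding and none of 4 tested genes among the other ErbB receptors and ligands passed. The list medians were -0.10 for ERK output, -0.11 for adaptors, -0.06 for shedding and -0.22 for other ErbB genes, beside -0.01 over all genes.

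In EC, Egr1 fell by 0.83 under HG + FFA (log2 scale, FDR = 0.000963) and by 0.82 under ALL stressors (FDR = 0.00106), and these were 1 and, with Etv5, 2 of the 14 ERK output genes, where 3.53% and 3.18% of all genes passed. Etv5, a transcription factor induced by ERK signalling, fell by 0.37 on the log2 scale under ALL stressors (FDR = 0.022). Adam9, a membrane protease, rose with HG + FFA (log2FC = 0.32 ± 0.06, FDR = 0.00254). Of the same 14 ERK output genes, Spry4 responded differently in EC and WT VSMC to ALL stressors (interaction -1.15 ± 0.25, FDR = 0.0135). No gene of the 4 lists passed in EC with AII + NA, in KO VSMC under any stressor, in KO against WT VSMC under Control, or in WT VSMC with HG + FFA or AII + NA alone. In EC against WT VSMC under Control, where 13% of all genes passed, 2 of 14 ERK output genes, 4 of 13 adaptor and turnover genes, 1 of 6 shedding genes and 0 of 4 tested other ErbB genes did. Of these, Dusp4 (log2FC = 3.13), Spry4 (1.40), Cbl (1.26), Adam10 (1.09) and Sos1 (0.76) were higher in EC, and Lrig3 (-2.20) and Sh3kbp1 (-2.18) were lower, with FDR from 0.00261 to 0.0282.

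Genes with the most similar pattern were sought for Nrg1 in WT VSMC and Lrig1 in EC, as the Pearson r of log2(FPM + 0.1) after subtraction of the set mean. For Nrg1 over 16 libraries these were Tsc22d1 (r = 0.931), Llgl2 (r = 0.93) and Stip1 (r = 0.918), of 13635 protein-coding genes. For Lrig1 over 38 EC libraries they were Cpxm1 (r = 0.917), Slc25a38 (r = 0.876) and Klf15 (r = 0.866), of 13626 genes. These values describe the libraries only, since the libraries share sets, treatments and depth.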

How the data were processed

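Primary male mouse cells were sequenced by the authors as poly(A)-enriched, paired-end libraries. Per the authors' methods, reads were mapped to mm39 with HISAT2 2.1.0 and counted over exons with featureCounts, multi-mapping reads included. The deposited unit is the raw count per Ensembl gene, with 69 libraries in 3 tables. Gene symbols were taken from the GENCODE annotation of GRCm39, which held 56310 of 56953 identifiers. The others held 0.0241% of counts.

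From these counts FPM (TMM factors) and TPM (union exon length) were computed. Each cell type was fitted on its own with edgeR 4.0.16 (filterByExpr, TMM, quasi-likelihood test, set as block) and, as an alternative, with DESeq2 1.42.0, in R 4.3.3. Genotype and cell type interactions were fitted jointly, and KO or EC against WT VSMC on Control libraries without a block. FDR is the Benjamini-Hochberg value over all genes tested, with a threshold of 0.05. SE is that of the log2FC, and intervals of log2FC are 95% intervals. Python 3.11.15 was used for the remaining steps. P-values of stressor effects and interactions measure the spread of the responses among sets, since the block removes the level of each set. Those of KO or EC against WT VSMC measure the spread of levels between animals. Within a cell type, sets come from different animals except EC sets 17 and 18. Across cell types, 4 animals gave both EC and VSMC, which the fits did not take into account.

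Libraries of a set share the animal, passage and day per the study. The correlation of their deviations from the group means was at least 0.494, 0.642 and 0.609 for every pair of the same set in WT VSMC, KO VSMC and EC. Between sets it was -0.269, -0.28 and -0.0913 on average. Subtracting the group means pulls these averages to negative values, so that they are no reference for the pairing. No 2 libraries of a group agreed within counting noise. Set 10 had no Control library, set 15 no AII + NA library and set 5 no library with ALL stressors; these are not analysed here, and sets without both libraries inform an effect only through the other conditions. The fit was tested on simulated data.

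The 10 genes and the pathway and marker lists were chosen with earlier results of these data known. All 10 genes were to be named in every comparison, with up to 4 genes per pathway list that had FDR under 0.05, and the 3 genes most like a called one. Alternatives were another normalization, no count filter, DESeq2, no block, the animal as block, the 2 groups only, the study's DEG rule (FDR in both tools, |log2FC| of edgeR of at least 0.64, 3 FPM) and leaving out each set. The 3 EC sets with few endothelial transcripts were left out after the marker sums had been seen. Depth limits Areg and Erbb3.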

Additional observations from a re-analysis of the deposited data

Results flagged for a closer look

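Of 110 groups of 4 to 10 libraries, each a gene in a cell type and condition, 9 had a library far from the others, where chance gives about 1 in 20. Erbb3 was low in WT VSMC set 3 at 0.163 FPM under Control (the others 2.28 to 3.58), 0.168 FPM under HG + FFA (3.03 to 3.53) and 0.128 FPM under AII + NA (1.91 to 3.03). The same set under HG + FFA was low in Ereg, with 7.29 FPM (the others 10.2 to 10.8), and in Errfi1, with 23.2 FPM (49.2 to 53.5). KO VSMC set 5 was high in Egfr under AII + NA, with 35.7 FPM (1.28 to 1.99), and low in Nrg1 under Control, with 10.5 FPM (23.3 to 24.4). In EC under Control, Errfi1 was 5.71 FPM in set 17 (12.1 to 25.5). Areg in WT VSMC set 2 under AII + NA was 0.0747 FPM where the other libraries held 0, a value of 2 counts. The response of Nrg1 to ALL stressors differed between EC and WT VSMC by -0.81 on the log2 scale (FDR = 0.0295, edgeR interaction).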

How the results depend on the processing

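Values here are numbers of ErbB genes with FDR under 0.05. In WT VSMC with ALL stressors the 1 gene became 3 without the count filter, 2 by DESeq2, 0 without the set as replicate block, 0 by the study's DEG rule (with the edgeR log2FC) and 0 to 3 when a set was left out, and with only the compared groups the 1 gene was Lrig1 instead of Nrg1. With AII + NA it became 1 without the filter in WT VSMC and 1 by DESeq2 in KO VSMC. In EC the 1 gene under HG + FFA became 0 without the block, 0 with the animal as block and 0 by the DEG rule. Under ALL stressors it became 0 in these 3, 2 without the filter and 1 to 2 when a set was left out. The cell type difference under ALL stressors went from 1 to 0 without the block and to 0 to 1 when a set was left out. For KO against WT VSMC, 0 became 2 by DESeq2, and 0 to 1 when a set was left out. For EC against WT VSMC it ranged from 2 to 7. The Egfr difference between KO and WT VSMC ranged from -7.976 to -6.255 when a set was left out, and without a WT set p was 0.0571 by the exact permutation test. The causes of these changes were not tested. No value changed its direction. Beside these, 257 of the recomputed counts and differences were rated the same as the main value, where a small change of a count was allowed. Of the values of named genes, 231 stayed on the same side of the threshold, 21 passed it newly and 26 no longer passed. Depth limits Areg in all cell types and Erbb3 in EC and WT set 3. The cell types differ in batch, and the 9 EC animals include 2 with KO VSMC.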
